A study of Mus musculus with 8 samples.

Results

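Cytochrome P450 enzymes are heme proteins that place an oxygen atom in drugs, fatty acids, steroids, retinoids and other small molecules. Most hepatic members sit in the endoplasmic reticulum and take their electrons from NADPH through P450 oxidoreductase. Their transcription in hepatocytes is set by ligand-activated receptors such as AhR (the aryl hydrocarbon receptor), CAR and PXR (receptors for drugs and steroids) and PPARα (a receptor for fatty acids), and in mice also by the sex pattern of growth hormone. The family was examined in liver RNA-Seq of mice given AF1 peptide or control. Members were the genes whose symbol has the form Cyp, family number, subfamily letter and gene number, leaving out Cyp7a1, Cyp7b1, Cyp8b1 and Cyp27a1, which make bile acids. This rule gave 73 of the 21532 genes of the table, and another 17 symbols that begin with Cyp (those 4 genes, pseudogenes and genes such as Cyp4a12a and Cyp51) were not members.

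The 8 animals were male db/db mice on the C57BL/6J background, 4 given control and 4 given AF1 peptide. A db/db mouse lacks a working leptin receptor and becomes obese and diabetic, and all 8 mice share that defect. AF1 peptide is a synthetic peptide designed from the N-terminal part of the estrogen receptor ERα, with short runs of residues left out. It is joined to a TAT sequence, which carries it into cells. Both agents were injected into the retro-orbital vein for 5 weeks from the age of 8 weeks, 2 doses a week of 5 mg per kg each, and RNA was taken from frozen whole liver, with 1 library per mouse. No lean mice were analysed here, so that the comparison is between treatments within the diabetic state.

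The deposited values are normalized counts, the reads of a gene divided by 1 size factor per library, and 23031880 to 45117528 reads per mouse lay behind them. Hepatocyte markers were present at high level (8 of 9 listed genes were in the table). Most listed markers of pancreas, kidney tubule and adrenal cortex, such as Prss2, Slc34a1 and Cyp11b1, were not among the table's genes. Those present were Cela1 (1 of 9 pancreas genes), Miox (1 of 6 kidney genes) and Star and Cyp21a1 (2 of 7 adrenal genes). Their mean normalized counts in control mice were 220, 7.84, 69.3 and 298. AF1 peptide replicate 1 stood apart from the other mice. In that mouse 10.8% of the tested genes lay more than 2-fold from the control mean, against 0.694 to 3.87% in the other 7 mice. Its mitochondrial share of counts, 20.8%, was the lowest (22.4 to 37.8% in the others). The summed level of the 7 Kupffer cell and macrophage markers was 2449 in that mouse and 5440.5 to 6783 in control mice, none of the 7 being at 0 on average in either group. Other lists were low there too, such as the 7 stellate cell markers (3793, against 5192 to 7232 in control mice) and the 6 cholangiocyte markers (815, against 1199 to 1810.00), and the sums of the hepatocyte, sinusoidal endothelial, red blood cell, adipocyte and intestine lists were also below every control mouse. The part of these differences in the P450 values was not tested, and results are given with and without this mouse. In whole liver, fewer cells of a type and less RNA per cell cannot be told apart.

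P450 transcripts were abundant in both groups and none of them passed the test for a change. Of the 73 members, 67 had a mean normalized count of at least 10 over the 8 mice and were tested, and the other 6 (Cyp26c1, Cyp27b1, Cyp2s1, Cyp2t4, Cyp3a57 and Cyp4f37) were below that level. A gene was called when limma on log2(normalized count + 1) gave an unadjusted p under 0.05 and a difference of more than 1.3-fold. By this rule 0 members were higher and 0 were lower with AF1 peptide, where 1.79% of all 15989 tested genes were called higher and 1.9% lower. With the p alone, 2 members were higher (Cyp4f13 and Cyp2a22) and 0 lower, against 3.16% and 3.03% of all genes, so that the members' share was close to the background. The 4 values of one group lay wholly above the other for Cyp4f13 and Cyp2a22 and wholly below for Cyp2d11, against 2.05% and 1.85% of all genes. After Benjamini-Hochberg adjustment the smallest limma p among members was 0.763, which was also the smallest of any gene. edgeR and DESeq2 on the recovered reads called 1 and 2 members, all higher, against 2.15% and 2.16% of all genes called higher, with 0 members and, over all genes, 0 and 3 genes under an adjusted p of 0.05.

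Log2 fold changes (AF1 peptide over control) of the 67 members ran from -0.94 (Cyp4f39) to 0.87 (Cyp2c54), with a median of 0.089, where the median of all tested genes was -0.0083. Of the members, 45 lay above 0 (67.2%) and 22 below, and 48.2% of all genes lay above 0. Without AF1 peptide replicate 1 the members' median was 0.022 and 34 of 67 lay above 0. The direction of 27 members changed when 1 or another of the 8 mice was left out. The difference was smaller than 1.3-fold in 55 members. The spread between mice was wider for P450 genes than for the table, with a median SE of 0.26 against 0.17 on the log2 scale. The 95% confidence interval stayed within 2-fold in both directions for 51 of 67 members (76.1%, against 82.9% of all genes), and a 2-fold difference could not be told from none in the other 16.

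**Figure D1:**
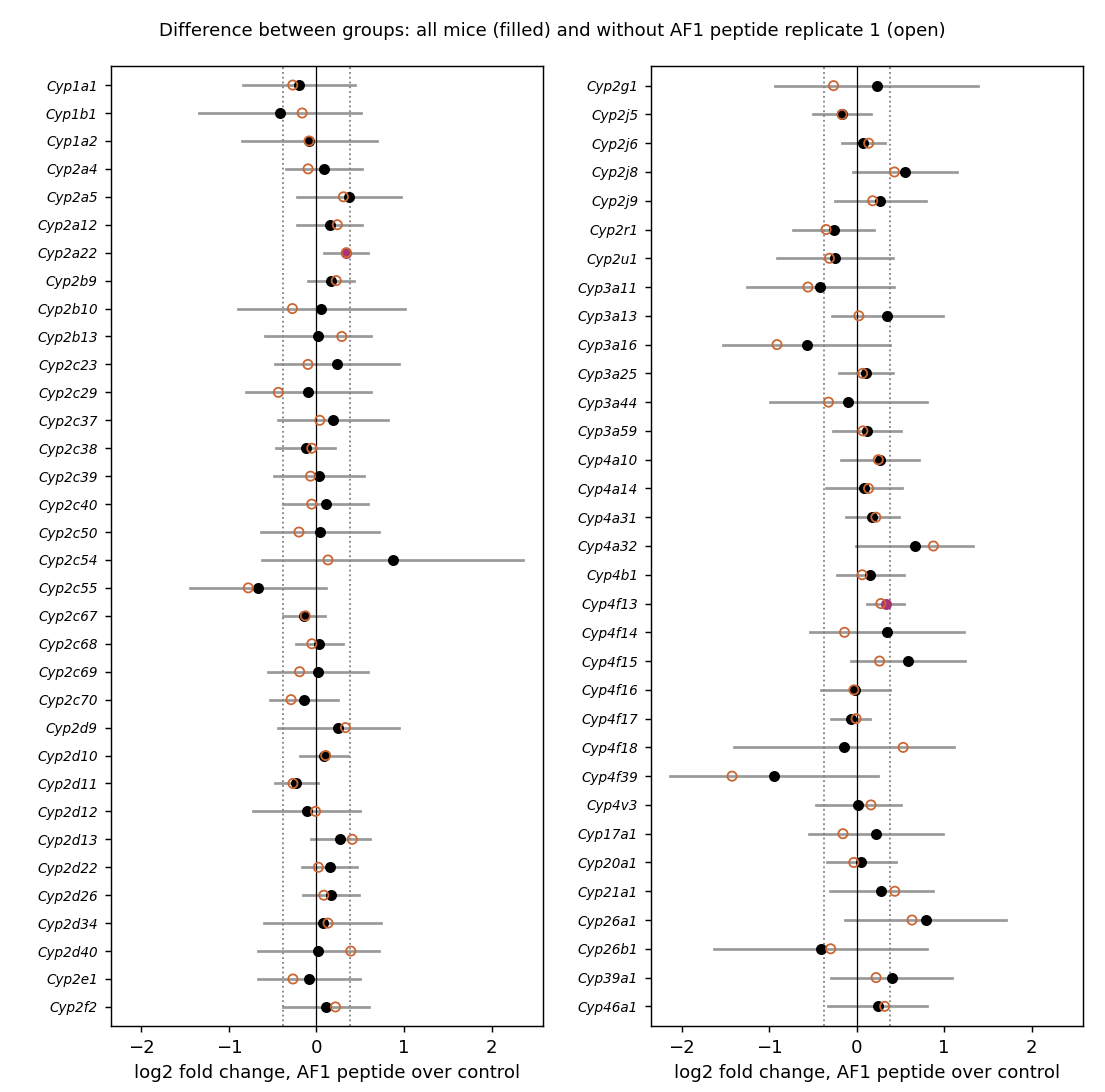
Log2 fold change, AF1 peptide over control, of the 67 tested P450 genes, ordered by family. Filled points are all 8 mice with 95% confidence intervals as lines (limma, n = 4 per group), coloured where the unadjusted p was under 0.05 (Cyp2a22 and Cyp4f13), open points leave out AF1 peptide replicate 1, and dotted lines mark 1.3-fold. The intervals of the other 65 genes reach 0.

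Without AF1 peptide replicate 1, 5 members had an unadjusted limma p under 0.05 and were higher (Cyp2a22, Cyp2d13, Cyp2d40, Cyp4a32 and Cyp4f13), against 4.58% of all genes, and 5 were lower (Cyp2c29, Cyp2c55, Cyp2d11, Cyp3a16 and Cyp4f39), against 5.48%. Of these, 3 higher and 4 lower also passed 1.3-fold, against 2.86% and 3.07% of all genes. No adjusted limma p of a member fell under 0.452 in that fit. Cyp2d40, chosen here after its values were seen, measured 1716, 1664, 1203 and 1145 in control mice and 663, 1967, 1803 and 1779.7 in AF1 peptide mice. The AF1 peptide mice 2 to 4 were all above the highest control mouse and replicate 1 was below the lowest. The log2 fold change of Cyp2d40 was 0.023 with that mouse and 0.39 without it.

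**Figure D2:**
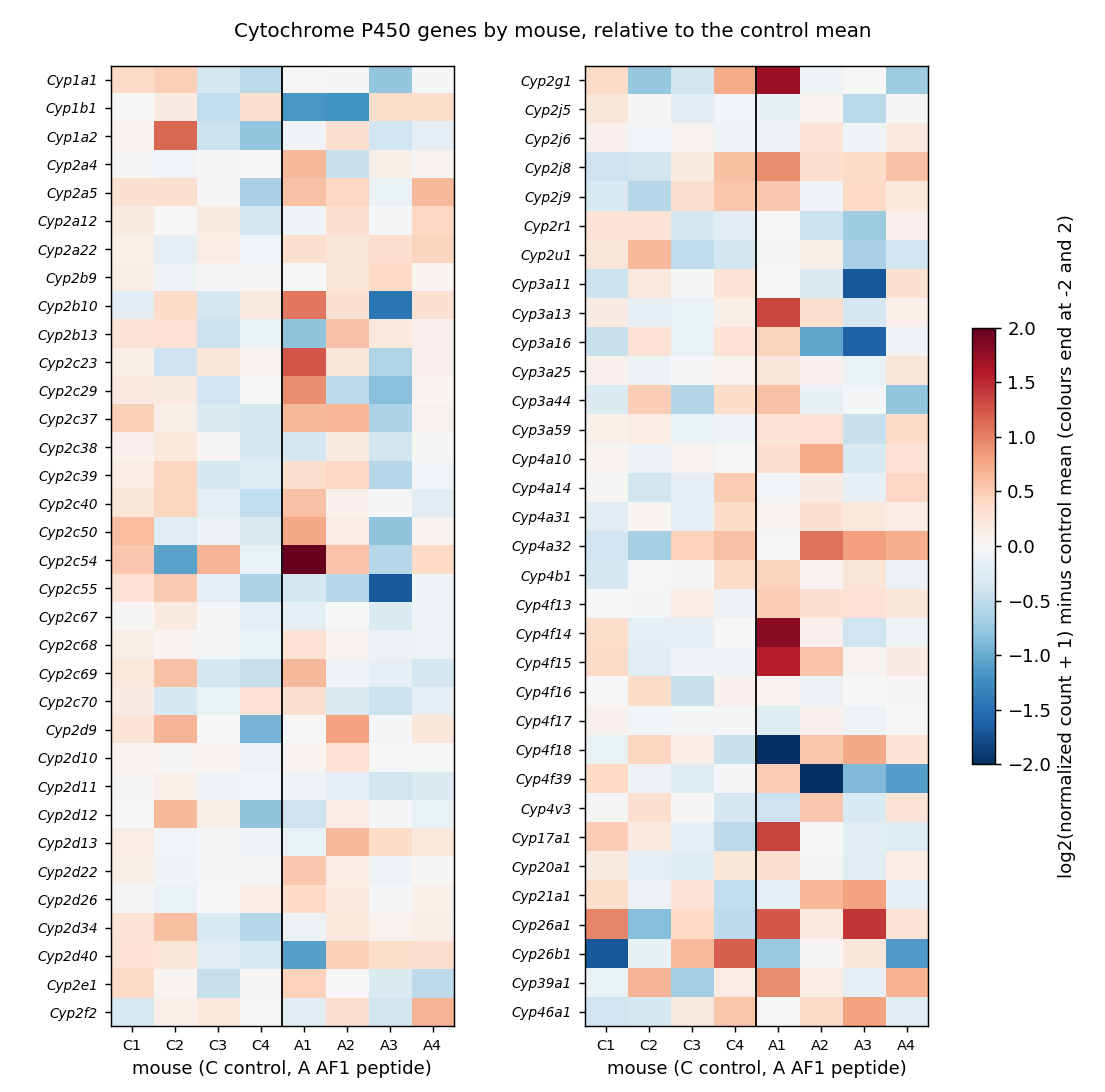
Log2(normalized count + 1) of the 67 tested P450 genes in each mouse minus the control mean of the gene, with columns for control mice 1 to 4 (C) and AF1 peptide mice 1 to 4 (A) and colours that end at -2 and 2. AF1 peptide replicate 1 has the highest value of the 8 mice in 26 genes and AF1 peptide replicate 3 the lowest in 24.

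AF1 peptide replicate 1 held the highest value of the 8 mice in 26 of 67 members (38.8%, against 25.9% of all genes) and AF1 peptide replicate 3 the lowest in 24 (35.8%, against 17.9%). These mice belong to the same treatment group. Members together made up 2.32% of the non-mitochondrial counts in replicate 1 and 1.72% in replicate 3, which were the highest and lowest of the 8 mice, with control mice at 1.8 to 2.02%. Replicates 2 and 4 were at 2.1% and 2.14%, so that by this share 3 of the 4 AF1 peptide mice lay above every control mouse. With mitochondrial counts included, members made up 1.84, 1.31, 1.13 and 1.36% in AF1 peptide mice 1 to 4. Control mice were then at 1.18 to 1.48%, and only AF1 peptide replicate 1 lay above all of them. The median coefficient of variation of members between mice was 22.3% in control and 28.1% in AF1 peptide mice, where that of all tested genes was 13.3% and 18.1%, and it was larger with AF1 peptide in 67.2% of members and 67.2% of all genes.

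To compare levels between genes, normalized counts were divided by the exon length of each gene (normalized count per kilobase), which could be done for 72 members. This length merges all annotated exons of a gene. The ethanol- and acetaminophen-oxidizing Cyp2e1 was the highest, at 40428 ± 9375 per kilobase in control and 38547 ± 11749 in AF1 peptide mice (SD, n = 4). The coumarin hydroxylase Cyp2a5 followed at 29218 ± 8101 and 37439 ± 8390.00 per kilobase. Their difference was within 1 SD in AF1 peptide mice and above either SD in control mice. Cyp2d26 (16154 ± 1248 per kilobase in control mice), Cyp3a25 (14875 ± 949.7) and Cyp2d10 (13319 ± 618) came next. Cyp4a10, a fatty acid ω-hydroxylase, and Cyp3a11, the main PXR-responsive drug hydroxylase of mouse liver, had control levels of 9723 ± 569.9 and 8793 ± 1757 per kilobase, whose spreads overlapped. The place of Cyp3a11 depends on its merged exon length of 5093 bases, against 2083 for Cyp3a25. By normalized count Cyp3a11 was above Cyp3a25 in control mice (means of 44782 and 30985). Among the tested members Cyp1b1 and Cyp4f39 were lowest, at 4.61 ± 1.1 and 4.6 ± 1.01 per kilobase in control mice. By summed normalized count, not corrected for length, Cyp2a genes held 21.6% of all P450 counts, Cyp2e 16.8%, Cyp3a 16%, Cyp2d 15.2%, Cyp2c 8.08% and Cyp4a 7.43%.

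**Figure D3:**
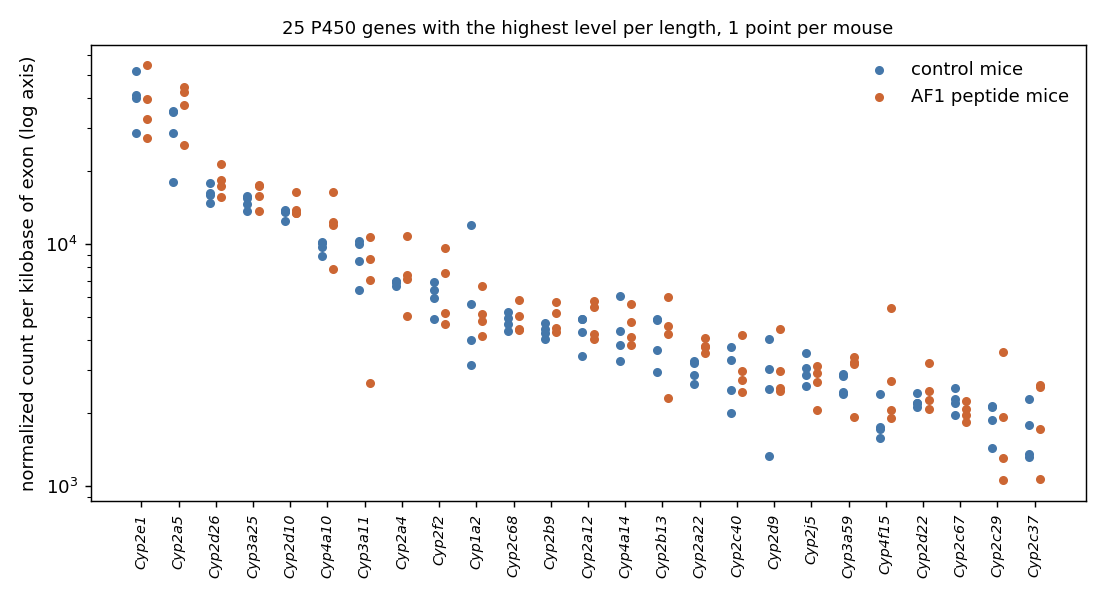
Normalized count per kilobase of exon (log axis) of the 25 P450 genes with the highest level per length, 1 point per mouse, control mice in blue and AF1 peptide mice in orange. The points of the groups overlap in all of these genes except Cyp2a22.

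The Cyp1 genes, which AhR switches on and whose products oxidize polycyclic aromatic compounds, passed the test in none of the 3 members. Cyp1a2, the constitutive hepatic member, measured 11349, 24093, 8059 and 6370.5 in control mice and 10348, 13499, 8333 and 9609 in AF1 peptide mice. Control replicate 2 was above all other mice, and the log2 fold change was -0.082 ± 0.35 (SE) (limma adjusted p = 0.973) with that mouse and 0.30 without it. The inducible Cyp1a1 was low, with normalized counts of 63.5, 67.9, 37.8 and 33.5 in control mice and 48.5, 47.5, 28 and 47.8 in AF1 peptide mice. Its AF1 peptide values lay within or below the control range (log2 fold change -0.20 ± 0.29 (SE), limma adjusted p = 0.893). Cyp1b1, a minor hepatic member, ranged from 18.4 to 33.5 in control and from 11 to 34 in AF1 peptide mice.

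All 4 Cyp2a genes had fold changes above 0, with a median of 0.24 on the log2 scale, and Cyp2a22 had a p under 0.05. Cyp2a22 (normalized counts) measured 11033, 9059.8, 11345 and 9888 in control mice and 12893, 12139, 13029.7 and 14001 in AF1 peptide mice. Every AF1 peptide mouse was above every control mouse, with means of 10331 ± 1054 and 13016 ± 765 (SD, n = 4). The log2 fold change was 0.34 ± 0.11 (SE), with a 95% confidence interval of 0.085 to 0.59 and a Benjamini-Hochberg limma adjusted p = 0.763, and stood at 0.34 without AF1 peptide replicate 1. The difference was below 1.3-fold with all mice. Without control replicate 3 the log2 fold change was 0.384, past 1.3-fold and with an unadjusted limma p under 0.05. Cyp2a22 was therefore called higher in that fit. Cyp2a22 shares 20.2% of its 50-base words with the transcripts of Cyp2a12. Cyp2a12, a steroid hydroxylase, measured 16972, 14970.4, 16932 and 11861 in control mice and 13979, 18896, 14672 and 20093 in AF1 peptide mice, with overlapping groups (log2 fold change 0.15 ± 0.17 (SE), limma adjusted p = 0.854). With the reads of this pair summed, the log2 fold change was 0.23 ± 0.15 (SE) and no longer had a p under 0.05.

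The promoter of Cyp2a22, shown because Cyp2a22 was 1 of the 2 members with a p under 0.05, reads as follows in RefSeq (build GRCm38.p6, chr7:26939387-26939636, minus strand, the 250 bases before the start), with a TATAAA box in capitals. Aligned over 232 bases, it matches the promoter of Cyp2a12 at 91.8% of positions.
Cyp2a22: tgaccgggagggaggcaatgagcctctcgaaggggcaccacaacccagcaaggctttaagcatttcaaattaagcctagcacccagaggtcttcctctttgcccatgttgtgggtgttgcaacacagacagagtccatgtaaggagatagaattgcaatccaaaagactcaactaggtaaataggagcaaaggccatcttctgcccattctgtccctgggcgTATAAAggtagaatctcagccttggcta

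Cyp2a5 measured 72293, 73244, 59554 and 37184 in control mice and 87570.4, 77676, 53129.7 and 92067 in AF1 peptide mice. Control replicate 4 was the lowest and the groups overlapped (log2 fold change 0.38 ± 0.27 (SE), 95% confidence interval -0.22 to 0.97, limma adjusted p = 0.792). Its near copy Cyp2a4, a testosterone hydroxylase that is higher in female liver, measured 12142, 11577, 12113 and 12072 in control mice and 18714, 8756, 12932 and 12418 in AF1 peptide mice. The control mice lay close together, with a coefficient of variation of 2.23%, and AF1 peptide mice lay on both sides of them (31.2%). The genes share 28.1% of the 50-base words of Cyp2a5 and 36.1% of those of Cyp2a4 with each other. In the 250 bases before the start the pair is the same at 245 of 249 aligned positions, and both hold TATAAA in the 300-base window. The sequences (RefSeq, GRCm38.p6) are shown because they are nearly the same while the levels of the genes are not. Capitals mark the bases that differ, Cyp2a5 being at chr7:26835089-26835338, plus strand and Cyp2a4 at chr7:26306942-26307191, plus strand.
Cyp2a5: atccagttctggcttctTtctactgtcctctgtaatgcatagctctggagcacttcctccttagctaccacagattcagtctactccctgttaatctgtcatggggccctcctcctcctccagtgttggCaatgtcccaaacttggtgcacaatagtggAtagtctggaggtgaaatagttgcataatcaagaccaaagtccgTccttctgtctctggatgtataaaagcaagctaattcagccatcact
Cyp2a4: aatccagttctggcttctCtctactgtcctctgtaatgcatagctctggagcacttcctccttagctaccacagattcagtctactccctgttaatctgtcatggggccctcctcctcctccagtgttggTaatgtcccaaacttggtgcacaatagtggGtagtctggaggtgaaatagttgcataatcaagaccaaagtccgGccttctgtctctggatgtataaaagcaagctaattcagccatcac

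The Cyp2b genes gave no call with all 8 mice. Cyp2b10, the classical target of CAR and of phenobarbital, measured 210.1, 314, 191 and 275 in control mice and 505, 301, 89 and 299 in AF1 peptide mice. AF1 peptide replicates 1 and 3 were the highest and the lowest of the 8 mice, and the log2 fold change of 0.057 ± 0.43 (SE) had a 95% confidence interval of -0.90 to 1.01 (limma adjusted p = 0.985). Without AF1 peptide replicate 3 it was 0.56, with an unadjusted p under 0.05, and without AF1 peptide replicate 1 it was -0.28. Cyp2b9 and Cyp2b13, which are known for a high level in female mouse liver, were both strongly expressed in these males. Cyp2b9 measured 8855, 7585, 8323 and 8008 in control mice and 8106, 9686, 10750.3 and 8405 in AF1 peptide mice (log2 fold change 0.17 ± 0.12 (SE), limma adjusted p = 0.792). Cyp2b13 measured 9066, 9209, 5563 and 6849 in control mice and 4305, 11298, 8588 and 7969 in AF1 peptide mice (log2 fold change 0.016 ± 0.27 (SE), limma adjusted p = 0.993). AF1 peptide replicate 1 was the lowest mouse for Cyp2b13 and lay inside the control range for Cyp2b9. Cyp2b13 shares 27.3% of its words with other genes, against 11.2% for Cyp2b9.

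The promoters of Cyp2b9 (chr7:26173159-26173408, plus strand) and Cyp2b13 (chr7:26061245-26061494, plus strand), from RefSeq on GRCm38.p6, differ at 2 of 250 positions, marked in capitals, and are shown because the letters of this pair are nearly the same.
Cyp2b9: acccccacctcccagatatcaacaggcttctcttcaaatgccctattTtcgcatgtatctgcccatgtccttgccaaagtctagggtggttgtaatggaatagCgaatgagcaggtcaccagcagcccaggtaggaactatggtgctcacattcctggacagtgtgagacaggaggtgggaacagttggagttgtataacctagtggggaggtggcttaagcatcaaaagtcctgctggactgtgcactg
Cyp2b13: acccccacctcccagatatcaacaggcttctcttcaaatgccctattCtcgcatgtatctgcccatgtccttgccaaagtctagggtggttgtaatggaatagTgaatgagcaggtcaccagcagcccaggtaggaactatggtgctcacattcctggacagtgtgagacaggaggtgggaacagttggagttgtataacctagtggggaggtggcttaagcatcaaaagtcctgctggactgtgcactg

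In the Cyp2c subfamily, whose members epoxidize arachidonic acid and hydroxylate drugs and steroids, 13 genes were tested, with 8 fold changes above 0 and 5 below (median 0.028 on the log2 scale). The median was -0.098 without AF1 peptide replicate 1. The sum over the subfamily was 34166 to 46278 normalized counts in control mice and 58238, 41104, 30236 and 37909.8 in AF1 peptide mice 1 to 4. Replicate 1 was above and replicate 3 below the control range. Cyp2c68, the member with the highest count, measured 9000.5, 8505, 8008 and 7490.1 in control mice and 10111, 8632, 7574 and 7641 in AF1 peptide mice, a log2 fold change of 0.034 ± 0.12 (SE) (limma adjusted p = 0.967). It shares 43.3% of its words with other genes, and with Cyp2c40, Cyp2c67 and Cyp2c69 summed the log2 fold change was 0.020 ± 0.16 (SE). Several members were highest in AF1 peptide replicate 1 and named for it after their values were seen. The epoxygenase Cyp2c29 measured 6572, 6481, 4388 and 5739 in control mice and 10947, 3978, 3223 and 5909 in AF1 peptide mice, and its log2 fold change went from -0.093 to -0.44 once replicate 1 was left out. Cyp2c54 measured 413, 135, 456 and 260.4 in control mice and 2437, 422, 193 and 376 in AF1 peptide mice. Its log2 fold change of 0.87 ± 0.67 (SE), the highest of the family, was 0.13 without replicate 1, in which alone the count was above the control range. Cyp2c55 measured 260.4, 306, 186 and 136 in control mice and 166, 142, 65.1 and 200.2 in AF1 peptide mice, with a log2 fold change of -0.67 ± 0.35 (SE) (limma adjusted p = 0.763). Replicate 3 held the lowest value of Cyp2c55. Cyp2c70, which makes muricholic acids, measured 1269, 904, 1033 and 1376 in control mice and 1396, 933, 840.3 and 1005 in AF1 peptide mice (limma adjusted p = 0.871).

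The 9 Cyp2d genes, relatives of a human enzyme that oxidizes many drugs, had control coefficients of variation from 4.64% (Cyp2d10) to 41.5% (Cyp2d9). Cyp2d26 measured 28503, 26476, 28911 and 31898 in control mice and 38179, 32989.5, 28016 and 31028 in AF1 peptide mice (log2 fold change 0.16 ± 0.14 (SE), limma adjusted p = 0.826), and Cyp2d10 had a 95% confidence interval of -0.18 to 0.36 on the log2 scale. Cyp2d11 was the member whose AF1 peptide values lay wholly below the controls. It measured 276, 291, 255 and 261 in control mice and 251, 241, 209 and 224 in AF1 peptide mice. The gap between the groups was narrow, from 251 to 255 normalized counts, and the log2 fold change was -0.23 ± 0.11 (SE) (limma adjusted p = 0.763), or -0.27 without AF1 peptide replicate 1. Cyp2d11 shares 37.2% of its words, most of them with the far higher Cyp2d10, and the summed pair had a log2 fold change of 0.087 ± 0.12 (SE). Cyp2d13 measured 4752, 4111, 4203 and 4031 in control mice and 3889, 6672, 5496 and 4954 in AF1 peptide mice. It was higher in AF1 peptide mice 2 to 4 than in any control mouse and lowest in replicate 1 (log2 fold change 0.27 ± 0.15 (SE), and 0.41 without that mouse). Cyp2d22 measured 9419, 8271, 8598 and 8616 in control mice and 12598, 9666, 8085 and 8867 in AF1 peptide mice (limma adjusted p = 0.834).

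Cyp2e1 marks hepatocytes around the central vein and Cyp2f2, a naphthalene-oxidizing enzyme, those around the portal vein, so that this pair reads the opposite ends of the liver lobule. Cyp2e1 measured 111379, 89125, 61920.4 and 86554 in control mice and 117704, 85179, 70683 and 59170.1 in AF1 peptide mice (log2 fold change -0.086 ± 0.26 (SE), limma adjusted p = 0.96). Cyp2f2 measured 9901, 13077, 14066 and 12041 in control mice and 10514, 15404, 9462 and 19420.00 in AF1 peptide mice (log2 fold change 0.11 ± 0.22 (SE), limma adjusted p = 0.929). In both genes the groups overlapped, with AF1 peptide replicate 1 the highest mouse for Cyp2e1 and AF1 peptide replicate 4 the highest for Cyp2f2 and the lowest for Cyp2e1. Of the Cyp2j genes, which epoxidize arachidonic acid, Cyp2j5 measured 8273, 7162, 6081 and 6725 in control mice and 6309, 7341, 4819.9 and 6883 in AF1 peptide mice and Cyp2j6 ranged from 2372 to 3114 over the 8 mice. The log2 fold change of Cyp2j5 was -0.16 ± 0.15 (SE) (limma adjusted p = 0.83). The low Cyp2j8 measured 25.5, 26.6, 38.9 and 52.8 in control mice and 66.3, 43.8, 44.5 and 52.3 in AF1 peptide mice, with limma adjusted p = 0.763. The vitamin D hydroxylase Cyp2r1 and the fatty acid hydroxylase Cyp2u1 had log2 fold changes of -0.26 ± 0.21 (SE) and -0.25 ± 0.30 (SE).

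In the Cyp3a subfamily, whose genes respond to PXR, 6 of 7 members were tested, with 3 fold changes above 0 and 3 below. Cyp3a11 measured 32771, 50650.3, 43233 and 52473 in control mice and 44200.5, 36177, 13599.8 and 54528 in AF1 peptide mice. AF1 peptide replicate 3 was below the lowest control mouse and the other 3 lay within or just above the control range. The log2 fold change was -0.42 ± 0.38 (SE), with a 95% confidence interval of -1.26 to 0.42 (limma adjusted p = 0.828), and was 0.0095 without AF1 peptide replicate 3. Cyp3a25 measured 32752, 28440.00, 30416 and 32333 in control mice and 36163, 32916, 28329 and 36519 in AF1 peptide mice, an even level with a log2 fold change of 0.11 ± 0.14 (SE) (limma adjusted p = 0.881). It shares 26.8% of its words with other genes, mostly Cyp3a59, and the summed pair had a log2 fold change of 0.11 ± 0.15 (SE). Cyp3a13 measured 1964, 1566, 1598 and 1924 in control mice and 4417, 2166, 1385 and 1891 in AF1 peptide mice, and its log2 fold change of 0.35 ± 0.29 (SE) was 0.024 without AF1 peptide replicate 1. The low Cyp3a16, higher in female liver, measured 19.8, 33.5, 24.9 and 33.5 in control mice and 37.3, 12.8, 8.24 and 25.7 in AF1 peptide mice (limma adjusted p = 0.801).

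Cyp4a genes encode fatty acid ω-hydroxylases and are classical PPARα targets. All 4 members had fold changes above 0 (median 0.22 on the log2 scale) and none had an unadjusted p under 0.05. Cyp4a10 measured 21312, 18829.7, 21439 and 20446 in control mice and 25815, 34352, 16594 and 25149.5 in AF1 peptide mice. Replicates 1, 2 and 4 of the AF1 peptide group were above all control mice and replicate 3 was below them, for a log2 fold change of 0.27 ± 0.20 (SE) (limma adjusted p = 0.799), and without replicate 3 it was 0.46, with an unadjusted p under 0.05. Cyp4a14 measured 11295, 8564, 9898 and 15814 in control mice and 10702, 12372, 9928 and 14725 in AF1 peptide mice, with a log2 fold change of 0.089 ± 0.20 (SE) (limma adjusted p = 0.935). Cyp4a32, chosen after its values were seen, measured 1329, 1102, 2394 and 2597 in control mice and 1755, 3693, 3054 and 2878 in AF1 peptide mice. Its log2 fold change of 0.66 ± 0.30 (SE) had limma adjusted p = 0.763, and was 0.88 without AF1 peptide replicate 1, with an unadjusted p under 0.05. It was called by DESeq2 on the recovered reads and not by limma or edgeR. Of its words, 43.8% occur in other genes, mainly Cyp4a10, and the summed pair had a log2 fold change of 0.31 ± 0.19 (SE).

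Cyp4f genes act on leukotrienes and long-chain fatty acids, and held the member with the smallest p of the family. Cyp4f13 measured 1464, 1439.7, 1613 and 1347 in control mice and 2061, 1812, 1788 and 1716 in AF1 peptide mice. Every AF1 peptide mouse was above every control mouse, with means of 1466 ± 110.3 and 1844 ± 150.3 normalized counts (SD, n = 4). The log2 fold change was 0.33 ± 0.096 (SE), with a 95% confidence interval of 0.12 to 0.54 and a Benjamini-Hochberg limma adjusted p = 0.763, and 0.28 without AF1 peptide replicate 1. It stayed below 1.3-fold, and limma on values rescaled to equal totals gave 0.24 and no p under 0.05. Cyp4f13 shares 1.1% of its words with other genes. Its promoter (RefSeq, GRCm38.p6, chr17:32947362-32947611, minus strand) is shown as that of the gene with the smallest p. It holds no TATAAA, and capitals mark the one TTCNNNGAA, the letters that STAT proteins bind.
Cyp4f13: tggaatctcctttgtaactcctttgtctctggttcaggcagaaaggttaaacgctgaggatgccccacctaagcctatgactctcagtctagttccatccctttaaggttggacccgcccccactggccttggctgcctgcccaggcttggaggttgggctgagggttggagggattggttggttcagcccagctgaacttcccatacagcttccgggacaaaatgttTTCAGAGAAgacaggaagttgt

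Cyp4f15, the most abundant Cyp4f transcript by count, measured 5484, 3614, 3900.1 and 3999 in control mice and 12411, 6204, 4370.2 and 4679 in AF1 peptide mice. AF1 peptide replicate 1 was the highest by far and the groups overlapped. The log2 fold change was 0.59 ± 0.29 (SE) (limma adjusted p = 0.763) and 0.26 without that mouse. edgeR and DESeq2 called it, limma did not. Cyp4f14, a leukotriene hydroxylase, had the same outlying mouse, with 1692 normalized counts there and 427 to 616 in control mice. Cyp4f18, an enzyme of neutrophils, went the other way in that mouse, at 7.47 against 26.8 to 50.2 in control and 45 to 63.4 in the other AF1 peptide mice. The macrophage markers were low in the same mouse, as were other lists, and their part in this value was not tested. The low Cyp4f39, chosen after its values were seen, measured 17.3, 11.8, 10.8 and 12.6 in control mice and 18.7, 1.83, 6.59 and 5.51 in AF1 peptide mice, with the family's lowest log2 fold change of -0.94 ± 0.53 (SE) (limma adjusted p = 0.767). Cyp4v3, a fatty acid hydroxylase, measured 6288, 8028, 6467 and 5074 in control mice and 4797, 9251, 5139.6 and 7665 in AF1 peptide mice (limma adjusted p = 0.989).

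**Figure D4:**
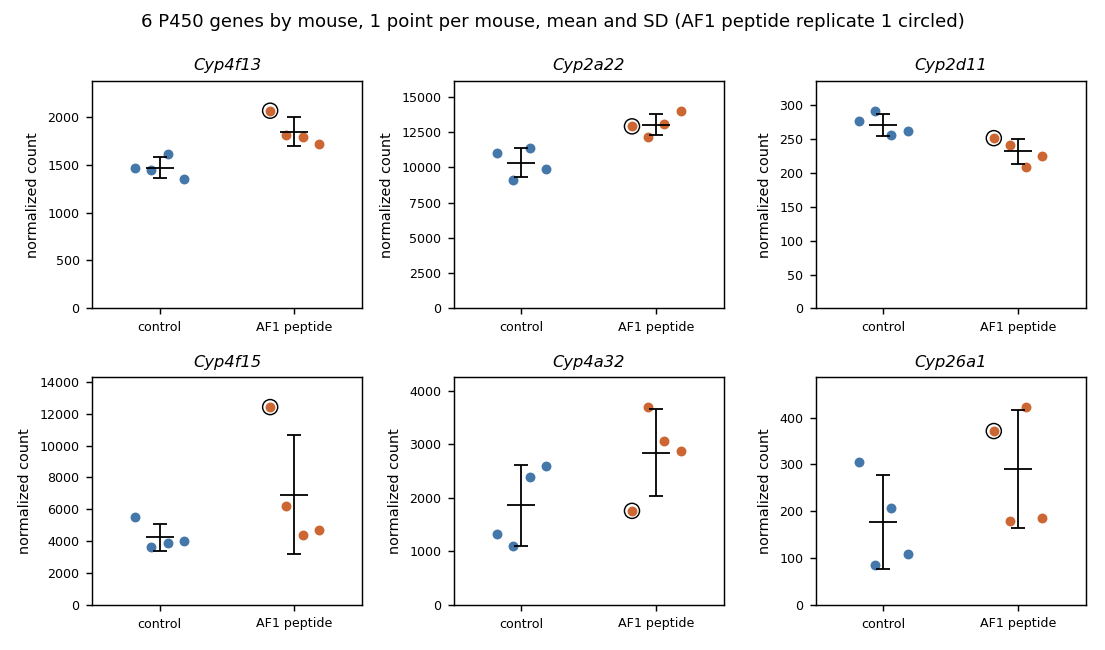
Normalized counts of 6 P450 genes in each mouse (points; 4 control in blue, 4 AF1 peptide in orange), with mean and SD as bars and AF1 peptide replicate 1 circled. The groups do not overlap for Cyp4f13, Cyp2a22 and Cyp2d11 and overlap for Cyp4f15, Cyp4a32 and Cyp26a1.

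Cyp26a1 breaks down retinoic acid and is switched on by it. It measured 306, 85.7, 206 and 108 in control mice and 371, 179, 423 and 186 in AF1 peptide mice. The values spread over a wide range in both groups, and the log2 fold change of 0.79 ± 0.41 (SE) had a 95% confidence interval of -0.13 to 1.71 (limma adjusted p = 0.763). Cyp26b1, which has the same substrate, ranged from 35.4 to 269 in control and from 52.3 to 136 in AF1 peptide mice. Cyp26c1 was at 0 reads in 3 control mice and 1 AF1 peptide mouse and reached 4.12 at most. Cyp39a1, an oxysterol hydroxylase, measured 84.1, 149, 57.3 and 102 in control mice and 177, 102, 82.4 and 149.7 in AF1 peptide mice (log2 fold change 0.40 ± 0.31 (SE), limma adjusted p = 0.808). Cyp46a1, a cholesterol hydroxylase best known from brain, ranged from 725 to 1399 and from 812 to 1668. Cyp21a1, the steroid hydroxylase of adrenal cortex, ranged from 205 to 372 in control and from 254 to 505 in AF1 peptide mice, while 5 of the 7 adrenal markers listed, Cyp11a1 and Cyp11b1 among them, were not in the table. It shares 21.3% of its words with the pseudogene Cyp21a2-ps. A further 15 tested members (Cyp20a1, Cyp2c23, Cyp2c37, Cyp2c38, Cyp2c39, Cyp2c50, Cyp2d12, Cyp2d34, Cyp2g1, Cyp2j9, Cyp3a44, Cyp4a31, Cyp4b1, Cyp4f16 and Cyp4f17) had log2 fold changes of -0.12 to 0.27 and adjusted limma p values of 0.803 to 0.99.

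Sex-dependent P450 genes were compared because growth hormone sets them apart in male and female mouse liver. No gene of the female list (10 tested) or of the male list (3 tested) was called. Their median log2 fold changes were 0.017 and 0.68, the latter being the value of Cyp4a12a. Without AF1 peptide replicate 1 these medians were -0.17 and 0.63. Among the female-type genes, Cyp17a1, which makes sex steroid precursors, measured 5054, 4096, 3191 and 2486 in control mice and 9183, 3599.9, 3069 and 2997 in AF1 peptide mice. AF1 peptide replicate 1 was above all others, and the log2 fold change went from 0.22 ± 0.35 (SE) to -0.16 without it (limma adjusted p = 0.903 with all mice). Of the same list Cyp2b13 was lowest in that mouse and Cyp2b9 inside the control range, as given above. Cyp2c40 and Cyp2c69 were highest in it, at 8547 and 2029.6 normalized counts. Cyp2a4 (18714) and the low Cyp3a16 (37.3), Cyp3a41a (70) and Cyp3a44 (15.9) were highest there too. Cyp3a41b was inside the control range in it (54.1, against 28.8 to 56.1). Of the male-type genes, Cyp2d9, a testosterone hydroxylase, measured 8060.2, 10781, 6698 and 3534 in control mice and 6764, 11799, 6539 and 7888 in AF1 peptide mice (log2 fold change 0.25 ± 0.31 (SE), limma adjusted p = 0.871). Cyp4a12b, a symbol outside the membership rule, measured 84.9, 139.8, 204 and 78.7 in control mice and 596, 108, 119 and 473 in AF1 peptide mice, with AF1 peptide replicates 1 and 4 above all other mice and the other pair inside the control range (log2 fold change 1.05 ± 0.56 (SE), limma adjusted p = 0.763). Cyp4a12a, also outside the rule, ranged from 506 to 1494 in control mice and reached 4058 in AF1 peptide replicate 4. The other AF1 peptide mice were at 644, 747 and 1264.5, inside the control range (log2 fold change 0.68 ± 0.54 (SE), limma adjusted p = 0.81). Shared words were not computed for Cyp4a12a and Cyp4a12b. Cux2, a transcription factor of female liver, was at 4101 normalized counts in AF1 peptide replicate 1, against 158 to 501 in control mice. Its part in the values of that mouse was not tested.

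**Figure D5:**
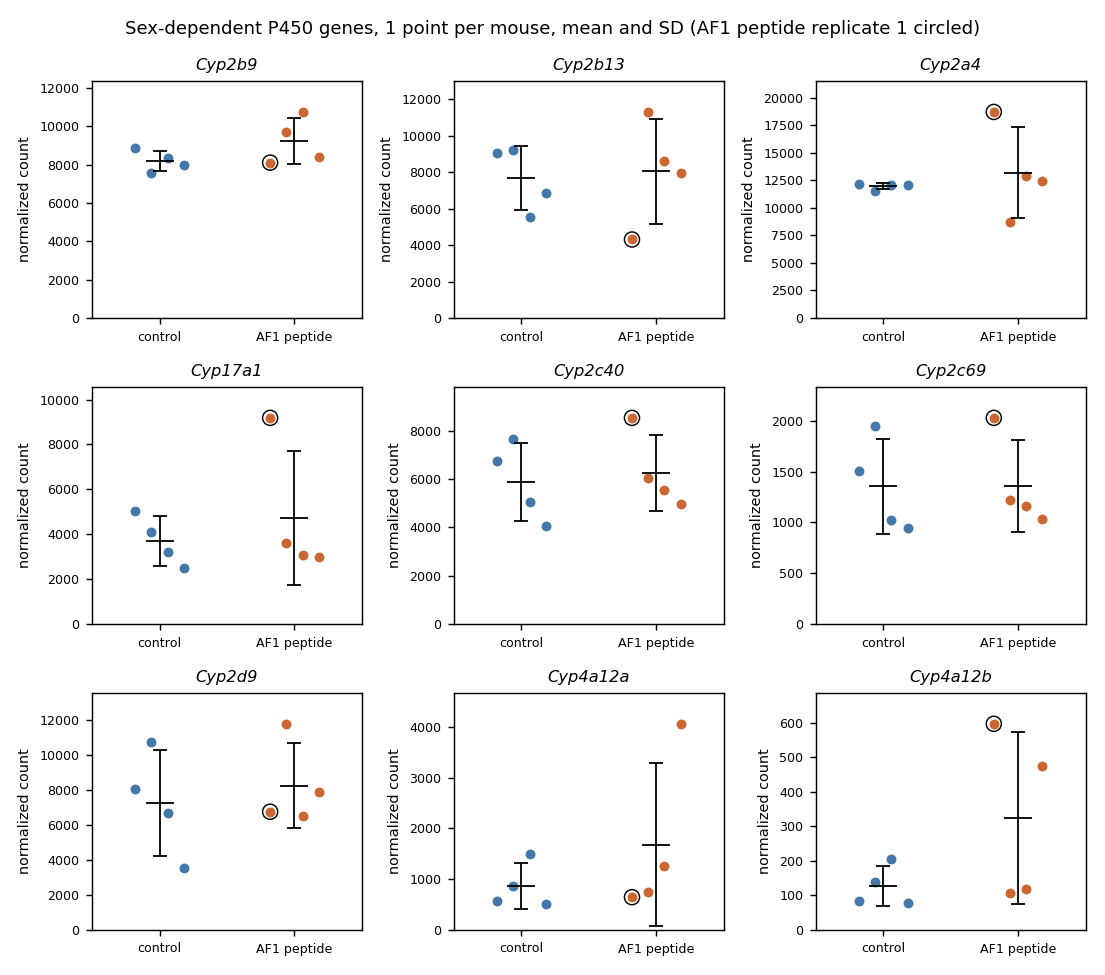
Normalized counts of 9 sex-dependent P450 genes in each mouse (points; 4 control in blue, 4 AF1 peptide in orange), with mean and SD as bars and AF1 peptide replicate 1 circled. Cyp2b9 to Cyp2c69 are higher in female mouse liver and the last 3 in male liver, and the groups overlap in all 9.

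Of 110 tested genes on the lists of partners, regulators, receptor targets and sex-dependent genes, 4 were higher and 3 lower by the rule used for the members (median log2 fold change of each list between -0.38 and 0.68). Over all 15989 tested genes the same rule called 1.79% higher and 1.9% lower. Among 9 electron donors and partners, Fdxr, which passes electrons to mitochondrial P450 enzymes, was called higher, with groups that overlapped. It measured 2053, 1763, 1875 and 1572 in control mice and 3475, 2489, 2452 and 1998 in AF1 peptide mice, a log2 fold change of 0.50 ± 0.16 (SE) (limma adjusted p = 0.763), and of 0.35 without AF1 peptide replicate 1, below 1.3-fold, so that it was not called without that mouse. Por, the reductase of microsomal P450 enzymes, measured 10755, 9625, 8616 and 10093 in control mice and 24662, 11887, 8929.8 and 8669 in AF1 peptide mice. Its AF1 peptide replicate 1 was above all others, and the log2 fold change went from 0.33 to -0.0021 without it. Cyb5a, a cytochrome b that also donates electrons, had limma adjusted p = 0.907. None of 12 heme synthesis and breakdown genes was called. The smallest p there was that of the heme-degrading Hmox1, which measured 381, 601, 476 and 622 in control mice and 269.7, 367, 486 and 435 in AF1 peptide mice (log2 fold change -0.42 ± 0.21 (SE), limma adjusted p = 0.763), while Alas1, the rate-limiting enzyme of heme synthesis, had limma adjusted p = 0.854.

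Among 30 transcription regulators, 2 were called, both higher, where 1.79% of all tested genes were called higher. Esr1 was 1 of these 2. Esr1, which encodes ERα, the protein AF1 peptide is taken from, measured 241, 175, 244 and 226 in control mice and 521, 354, 233 and 253 in AF1 peptide mice (log2 fold change 0.55 ± 0.24 (SE), limma adjusted p = 0.763). Without AF1 peptide replicate 1 the value of Esr1 was 0.32 and it was not called, and the call was also lost without control replicate 1, 2 or 4 or AF1 peptide replicate 2. Nr1i2, which encodes PXR, measured 3649, 3200.5, 4099 and 4176 in control mice and 5072, 4606, 4773 and 4270.2 in AF1 peptide mice. Its groups did not overlap (log2 fold change 0.31 ± 0.11 (SE), limma adjusted p = 0.763), below 1.3-fold. Nr1i3, which encodes CAR, Ahr, Ppara, Hnf4a and Stat5b had adjusted limma p values of 0.781, 0.891, 0.975, 0.975 and 0.995.

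Receptor targets outside the family gave 3 lower genes, where 1.9% of all tested genes were called lower. All 3 belong to the UDP-glucuronosyltransferase Ugt1a cluster, which conjugates bilirubin and drug metabolites and whose transcripts share their 3′ exons. Ugt1a6a measured 115, 141, 71.3 and 119 in control mice and 80.3, 69.4, 57.7 and 68.9 in AF1 peptide mice (log2 fold change -0.65 ± 0.22 (SE), limma adjusted p = 0.763). Ugt1a6b gave -0.89 ± 0.27 (SE) (limma adjusted p = 0.763). These 2 were on the list of 4 tested AhR targets. Both were also called lower whichever 1 mouse was left out (Ugt1a6a at -0.53 to -0.85, Ugt1a6b at -0.74 to -1.11 on the log2 scale). Ugt1a1, of the 15 CAR and PXR targets, measured 283, 469.7, 293 and 389 in control mice and 351, 226, 185 and 237 in AF1 peptide mice (log2 fold change -0.53 ± 0.22 (SE), limma adjusted p = 0.763), and was not called once control replicate 2 or 4 or AF1 peptide replicate 2, 3 or 4 was left out (-0.39 to -0.52 on the log2 scale). The AhR-controlled members Cyp1a1 and Cyp1a2 and the CAR-controlled Cyp2b10 were not called with all mice, and Cyp2b10 was called higher without AF1 peptide replicate 3. Of 19 PPARα targets, 6 had fold changes above 0 and 13 below. Their median was -0.21 on the log2 scale with all mice and 0.051 without AF1 peptide replicate 1. Only 1 was called, Acot3, an acyl-CoA thioesterase also on the list of sex-dependent genes. Acot3 was higher, with 1681, 1417, 2149 and 3255 in control mice and 2812, 3003, 3687 and 2685 in AF1 peptide mice (log2 fold change 0.58 ± 0.23 (SE), limma adjusted p = 0.763). That call was lost without control replicate 1 or 2 or AF1 peptide replicate 3 (0.41 to 0.49). Ehhadh, a peroxisomal β-oxidation enzyme, was lower with an unadjusted limma p under 0.05 (limma adjusted p = 0.763). Its log2 fold change of -0.35 was below 1.3-fold, so that it was not called. It was -0.383 without AF1 peptide replicate 1, past 1.3-fold and with an unadjusted limma p under 0.05. The fold changes of Cyp4a10 and Cyp4a14 were 0.27 and 0.089.

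The promoters of members were searched on both strands for a few short motifs, 58 members having 63 windows of 300 bases in RefSeq (GRCm38.p6, 250 bases before the start and 50 after). TATAAA occurred in 42.9% of the members' windows and in 13.6% of all 32851 windows of the table. AGGTCA, a single repeat of nuclear receptor elements, occurred in 27% and 16.3%. GCGTG, the core that AhR binds, occurred in 19% and 32.4%, Cyp1a1 and Cyp1b1 being among the members with a match. TTCNNNGAA occurred in 3.17% and 8.3%, in Cyp4b1 and Cyp4f13. Members share sequence with each other, so that the windows are not independent, and a match is not evidence of binding.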

How the data were processed

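Liver RNA of 8 male db/db mice (4 control, 4 AF1 peptide) was sequenced from stranded mRNA libraries. The authors used TrimGalore 0.6.7 for trimming, HISAT2 2.2.1 for alignment, SAMtools 1.17 for sorting and GenomicAlignments for counting, and deposited a signal table of normalized counts. The labels name mm39, and the annotation and normalization tool are not given in the sources used here. All values came out as whole reads over 1 size factor per library (100% within 0.01 reads), so reads could be recovered (23031880 to 45117528 per mouse).

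Log2(normalized count + 1) of the 15989 genes with a mean of at least 10 was tested with limma 3.58.1 (R 4.3.3, trend), p values being adjusted by Benjamini-Hochberg over all of them. A fold change on this scale understates that of low genes. The limma step was tested on simulated data. Alternatives were pseudocounts of 0.5 and 5, other filters, TMM factors, equal totals, no trend, each gene's own variance, a block for the replicate number, DESeq2 1.42.0, edgeR 4.0.16, other thresholds, each mouse left out and, added after the data were seen, near copies summed (genes sharing at least 20% of 50-base words). Exon lengths and words were from GENCODE M21 (GRCm38), and promoters from RefSeq GRCm38.p6, since no mm39 sequence was used here and nothing was converted between builds. Cyp2d13 had no length.

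Members and lists were chosen with earlier results of these data known. Genes named were members called or with groups that did not overlap, the member with the highest count in each main subfamily, the 5 highest members, textbook induction and sex markers, and in each pathway list the genes called or the one with the smallest p. Others were chosen after their values were seen. One called gene of the accompanying lists is counted but not reported here. No column was left out.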

Additional observations from a re-analysis of the deposited data

Results flagged for a closer look

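The spread within each group of 4 was checked in 68 groups of values of the genes named by rule, and 3 held a mouse whose gap to its nearest neighbour was over 82.9% of the range of the group. About 1 in 20 groups, or 3.4 of 68, is reached by chance. Cyp17a1 in AF1 peptide replicate 1 was 9183 normalized counts, against 2997 to 3600 in the other AF1 peptide mice, a gap of 0.902 of the range. Cyp1a1 in AF1 peptide replicate 3 was 28.0, against 47.5 to 48.5 in the others, a gap of 0.949 of the range. Cyp2a4 in control replicate 2 was 11577, against 12072 to 12142 in the other control mice, a gap of 0.876 of a range that was itself narrow.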

How the results depend on the processing

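The count of P450 genes called, 0 higher and 0 lower, depended on the processing. Higher members numbered 2 with no filter (Cyp26c1 and Cyp4a32), 3 with the replicate block (Cyp26a1, Cyp4a32 and Cyp4f15), 1 with edgeR, 2 with DESeq2 and 2 with either a log2 fold change beyond 0.3 or no fold threshold (Cyp2a22 and Cyp4f13). Equal totals gave 1 lower member (Cyp2c55), moved the median of all genes to -0.099 and that of the members to -0.0027, and left Cyp4f13 and Cyp2a22 with no p under 0.05. Leaving out 1 mouse gave 0 to 4 higher and 0 to 4 lower members (4 higher without AF1 peptide replicate 3, 4 lower without AF1 peptide replicate 1), with medians of 0.022 to 0.13. Among all genes, 286 were higher and 304 lower, against 435 and 459 with no filter, 122 and 602 at equal totals, 506 and 484 with no fold threshold, 197 lower with own variances, and 198 to 457 higher and 173 to 491 lower with 1 mouse left out. The 7 accompanying genes called became 4 with own variances, 12 with either looser fold threshold and 4 to 12 with 1 mouse left out. Same-number correlations between control and AF1 peptide mice ran from -0.064 to 0.24 (2 of 4 above 0.1). Their mean was 0.10, against -0.034 for the other pairings. With 4 such pairs this cannot decide whether the replicate numbers pair the mice, so the block result of 3 members is not read as a stronger effect. Over the P450 members named by rule and all other settings, 450 values kept their direction and their side of p 0.05, 32 changed sign with no p under 0.05 in either setting, 12 passed p under 0.05 only in the other setting and 2 (Cyp4f13 and Cyp2a22 at equal totals) lost it. The accompanying genes named by rule, such as Esr1, Ugt1a1 and Acot3, were not in this tally. Depth was high, and the spread between 4 mice limits what could be seen.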
